A study of Zea mays with 7 samples.

Results

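Acetylation of lysine 9 on histone H3 (H3K9ac) was mapped in maize by chromatin immunoprecipitation followed by sequencing (ChIP-seq), and the regions described here are the H3K9ac-enriched regions of the seedling stem that share no base with any H3K9ac-enriched region of husk. They were selected by comparing the start and end of every region in the deposited seedling list with those in the deposited husk list. Of the 17170 regions of the seedling list, 946 met this criterion, or 5.51% of the list (95% Wilson interval 5.18 to 5.86%). They are called V2-IST-only regions, and the remaining 16224 regions, which overlapped husk by at least 1 bp, are called shared V2-IST regions. Both lists together held 45174 regions.

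The plants were of the inbred line B73 and were grown in a greenhouse without any further treatment. The seedling stem at the V2 stage, taken without its outer leaves and exposed blades and abbreviated V2-IST, was represented by 2 H3K9ac replicates, and the soft inner husk leaves around silking ears by 3. Input chromatin of each tissue served as control (2 samples). Each library pooled several immunoprecipitations, so that a replicate is a mixture of plants, and each tissue is a mixture of cell types.

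H3K9ac is written by histone acetyltransferases and removed by histone deacetylases. The mark is found mainly just downstream of the transcription start sites of active genes and also at active enhancers, and it is gained and lost as these elements change their activity. The inner stem of a grass seedling consists largely of young rolled leaves around the shoot apex, while husk leaves are modified leaves that enclose the ear, so both are leafy tissues of different age and function. In maize, genes are denser towards the chromosome ends than around the centromeres.

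Each deposited list gives only a chromosome, a start and an end per region, and combines all replicates of its tissue. The lists carry no signal height and no read depth, so the depth behind each region is unknown. No spread between replicates could be computed from them, and no comparison below carries a test. The study does report reads per library and regions per replicate, which were not used here. There, every husk replicate had more called regions than either V2-IST replicate. The first husk replicate had the fewest uniquely mapped reads of all H3K9ac libraries. The Wilson intervals of shares and the order-statistic intervals of medians cover counting error over regions only, and regions are not independent replicates. A husk region entered its list only when it was called in all 3 husk replicates. A V2-IST-only region is therefore one without a husk region in the list, and H3K9ac below the calling threshold in husk was not tested. In such mixed tissues, fewer cells with the mark and less of the mark per cell cannot be told apart. Positions are given on B73 RefGen_v4 (AGPv4), counted from 1. The genes at these positions were not analysed here, since the only gene table at hand lies on a different assembly and was not used. The tissues could not be checked against marker genes.

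The regions just inside and just outside the criterion are given as a description, since overlap and gap chose them. Membership also depended on region width. When every region of both lists was set to 600 bp around its midpoint, 2266 V2-IST regions had no husk overlap. All 946 V2-IST-only regions were among these, so this setting only added regions. The shared V2-IST region with the smallest overlap lay on chromosome 3 from 123750534 to 123750808, and 123 bp of its 275 bp were covered by a husk region. The following 4 by overlap measured 193, 195, 198 and 199 bp and were covered over their full length. They therefore ranked here by their own short length, and not by a marginal coverage. Husk regions covered 90.2% of the shared V2-IST regions completely (89.7 to 90.6%) and covered under 50% of the length in 37 of them (0.228%). None of the 16224 had under 10% of its length covered. Husk regions had a median length of 1015 bp and all V2-IST regions one of 603 bp. The study attributes the greater husk length in part to its merging of 3 replicates in husk against 2 in V2-IST.

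On the other side of the criterion, the closest V2-IST-only region lay 6 bp from a husk region, on chromosome 2 from 84794365 to 84794969, beside a husk region of 1832 bp. The next closest were 278 bp away (chromosome 3, 226651906 to 226652464), 337 bp away (chromosome 2, 172064986 to 172065308), 576 bp away (chromosome 5, 15971804 to 15973587) and 617 bp away (chromosome 2, 29219489 to 29220124). In none of these 5 cases did the neighbouring husk region overlap another V2-IST region. It did so for 6 of the 16 V2-IST-only regions within 1 kb of husk, and for 55.1% of all V2-IST-only regions. Only 3 V2-IST-only regions lay within 500 bp of husk and 16 within 1 kb (1.69%, 1.04 to 2.73%). A broader criterion that counted a gap of up to 1000 bp as overlap left 930 regions.

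Most V2-IST-only regions lay more than 10 kb from any husk region, as did most shared V2-IST regions from their next one. The gap to the nearest husk region had a median of 22113.5 bp (95% interval 18781 to 25103 bp), with quartiles of 5969 and 53847 bp and a range from 6 to 389929 bp. A husk region lay more than 10 kb away from 612 of them (64.7%, 61.6 to 67.7%), more than 50 kb away from 254 (26.8%, 24.1 to 29.8%) and more than 100 kb away from 87 (9.20%, 7.52 to 11.2%). A husk region lay within 10 kb on both sides in 52 cases (5.50%) and on one side only in 282 (29.8%). The gap is part of the contrast that defined the regions, so these values describe them and support nothing further.

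**Figure D1:**
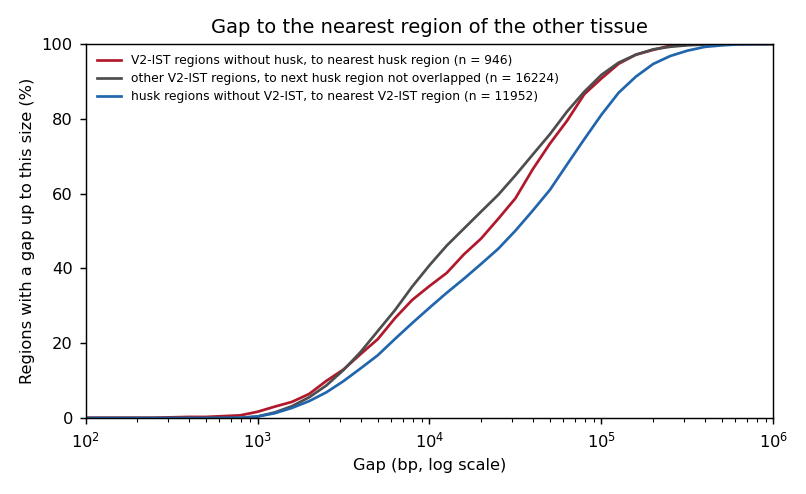
Cumulative share of regions (y axis, %) with a gap up to a given size (x axis, bp, log scale), for the 946 V2-IST-only regions to the nearest husk region, the 16224 shared V2-IST regions to the next husk region that they do not overlap, and the 11952 husk regions without a V2-IST region to the nearest V2-IST region. At 10 kb the curves stand at 35.3%, 40.9% and 29.5%.

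For comparison, shared V2-IST regions were measured to the next husk region that they did not overlap. Their median gap was 15334.5 bp (14636 to 15951 bp), and 59.1% of them had this next husk region more than 10 kb away. It lay more than 50 kb away from 24.2% (23.6 to 24.9%) and more than 100 kb away from 8.24% (7.83 to 8.67%). These shares were near those of V2-IST-only regions. In the opposite direction, 11952 of the 28004 husk regions shared no base with a V2-IST region, or 42.7% of the husk list. Their median gap to the nearest V2-IST region was 31485 bp (30276 to 32813 bp), measured to the shorter of the lists. This gap was over 50 kb for 39.1% of them and over 100 kb for 18.9%.

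The 5 V2-IST-only regions farthest from husk measured 486 to 811 bp. The farthest lay on chromosome 5 from 64425223 to 64426033, with 389929 bp to the nearest husk region and 455555 bp to the one on its other side. It was followed by a region of 757 bp on chromosome 9 (34496962 to 34497718, gap 326463 bp) and one of 486 bp on chromosome 4 (135269550 to 135270035, gap 281295 bp). The other two were a region of 793 bp on chromosome 6 (30482019 to 30482811, gap 270149 bp) and one of 522 bp on chromosome 2 (149835695 to 149836216, gap 246140 bp). The nearest other V2-IST region was 270297 to 455720 bp away from these 5, so that they stood alone in both tissues. Of the 87 regions more than 100 kb from husk, 9 lay in the first or last 10% of their chromosome. These outer parts held 29.8% of all V2-IST-only regions and 31.9% of all shared V2-IST regions. The count at this gap was not made for shared V2-IST regions, so the 9 of 87 could not be compared.

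The husk region next to a V2-IST-only region differed little from husk regions in general. Its median length was 968 bp (935 to 1003 bp), against 1015 bp (1007 to 1024 bp) for the whole husk list. It overlapped a further V2-IST region in 521 cases (55.1%, 51.9 to 58.2%), and 57.3% of all husk regions did so (56.7 to 57.9%). Among the 16 V2-IST-only regions within 1 kb of husk, the neighbouring husk region overlapped another V2-IST region in 6.

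V2-IST-only regions had a median length of 577 bp (542 to 605 bp), with quartiles of 413 and 860 bp and a range from 198 to 2572 bp. Shared V2-IST regions had a median of 604.5 bp (599 to 609 bp), with quartiles of 464 and 843 bp. The difference of the medians was -27.5 bp, and the interval of the first median reached beyond the second. Among regions of at least 500 bp, a selection on length itself, the direction was the opposite, with V2-IST-only regions longer by 47 bp. Together the V2-IST-only regions covered 649187 bp, or 5.30% of the length covered by the V2-IST list.

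The medians were similar, but the V2-IST-only regions were spread unevenly over the length classes. Below 300 bp, 71 of the 557 V2-IST regions had no husk region (12.7%, 10.2 to 15.8%), against 5.51% in the whole list. The share was 7.68% from 300 to under 400 bp (6.58 to 8.94%) and 4.84% from 400 to under 500 bp (4.13 to 5.68%). It was lowest from 500 to under 700 bp, where 221 of 5217 regions had none (4.24%, 3.72 to 4.82%). Above that it was 5.34% from 700 to under 1000 bp (4.65 to 6.12%), 6.25% from 1000 to under 1500 bp (5.29 to 7.37%) and 4.74% at 1500 bp and more (3.46 to 6.46%). The intervals below 400 bp and from 1000 to under 1500 bp did not overlap that of the class from 500 to under 700 bp. A long region has more positions at which it can touch a husk region, so length and the criterion are not independent.

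**Figure D2:**
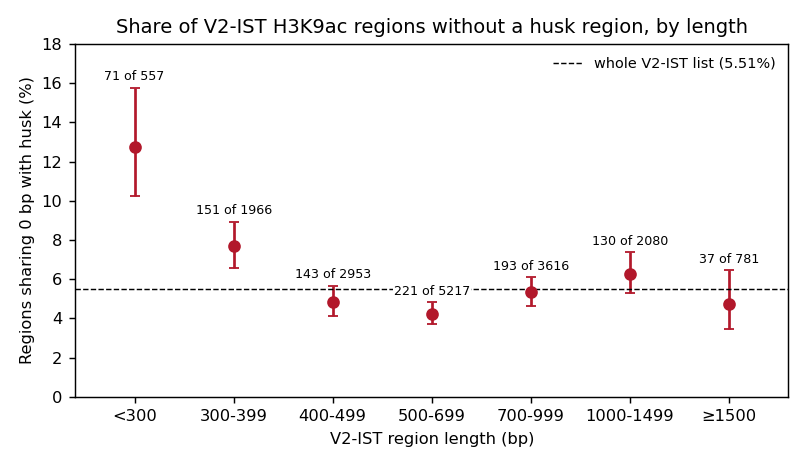
Share of V2-IST regions that share 0 bp with husk (y axis, %) in 7 classes of region length (x axis, bp); points are shares, bars 95% Wilson intervals, and labels give the number without a husk region of all in the class. The class below 300 bp stands at 12.7% and the class from 500 to under 700 bp at 4.24%, on either side of the 5.51% of the whole list (dashed line).

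The direction was the same on every chromosome for the shortest class. The class from 500 to under 700 bp, used for comparison, had the lowest share in these same data, which favours higher shares elsewhere. The chromosomes also share their libraries and are not independent, so the counts of chromosomes are a description. The share without a husk region was higher below 300 bp than from 500 to under 700 bp on 10 of 10 chromosomes, although each chromosome held only 35 to 89 regions of this length. Below 300 bp it lay between 8.57% on chromosome 10 (3 of 35 regions) and 18.4% on chromosome 6 (7 of 38 regions). For regions of at least 1000 bp, the share was higher than from 500 to under 700 bp on 9 of 10 chromosomes. This long class includes regions of 1500 bp and more, whose share over all chromosomes was 4.74% (3.46 to 6.46%). That interval overlapped the interval of the middle class. The exception was chromosome 3, where the share was 3.62% for the long class and 3.96% for the middle one. The 71 V2-IST-only regions below 300 bp had a median gap of 18203 bp to husk, and 44 of them lay more than 10 kb from any husk region.

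The lengths are also given by distance to husk, as a description. The 334 V2-IST-only regions within 10 kb of a husk region had a median length of 506.5 bp (473 to 542 bp), and the 612 farther away a median of 618 bp (594 to 655 bp). Regions below 500 bp made up 48.2% of the near class (42.9 to 53.6%) and 33.3% of the far class (29.7 to 37.2%). Regions of at least 1000 bp made up 13.5% (10.2 to 17.6%) and 19.9% (17.0 to 23.3%). Across all 946 regions, which share their libraries and are not independent replicates, Spearman's rho between length and gap was 0.144. The split by gap was looked at after the lengths were known.

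For shared V2-IST regions, the distance is that to the next husk region beyond the one they overlap, so the classes of both sets are not the same measure. Their median length was 614 bp (605 to 621 bp) where the next husk region lay within 10 kb and 599 bp (593 to 605 bp) where it lay farther away, a difference of 15 bp in the opposite direction. V2-IST-only regions near husk were shorter than those far from it on 8 of 10 chromosomes. The exceptions were chromosomes 1 and 10, where the near class was longer by 8 and 15 bp. The intervals of the near and far classes overlapped on every chromosome, and the chromosomes share their libraries, so they are not independent. Shared regions were shorter in the near class on 2 of 10 chromosomes. The difference between near and far V2-IST-only regions was -176 bp in the first and last 10% of the chromosomes and -91 bp in the rest. Among regions of at least 500 bp it was -13.5 bp, a comparison that selects on the length it compares.

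**Figure D3:**
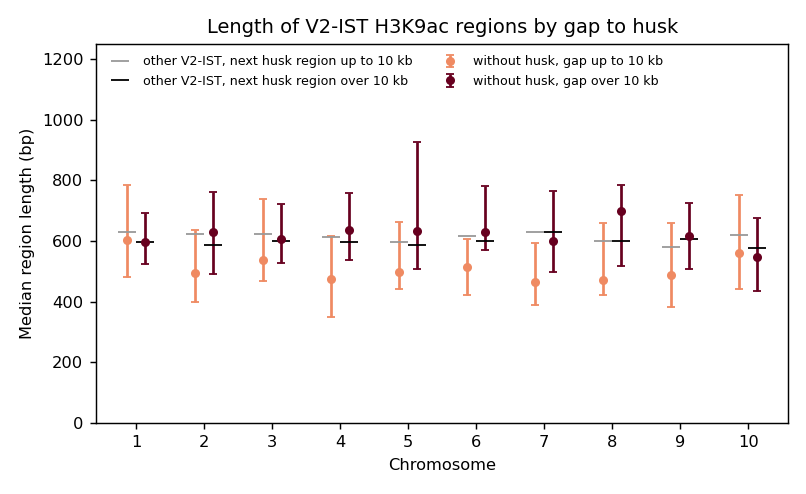
Median length (y axis, bp) of V2-IST-only regions within 10 kb of husk and farther away, with 95% order-statistic intervals as bars, by chromosome (x axis); horizontal ticks are the medians of shared V2-IST regions by distance to the next husk region. The near class lies below the far class on 8 of 10 chromosomes, with overlapping intervals on every chromosome. Over all chromosomes the medians were 506.5 and 618 bp.

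The share of V2-IST regions without husk is given by length for both classes of distance to the next husk region, as a description. Where the next husk region lay within 10 kb, 11.6% of V2-IST regions below 300 bp had no husk region (8.12 to 16.4%), and this share was 6.75% from 300 to under 500 bp (5.73 to 7.94%), 3.67% from 500 to under 1000 bp (3.09 to 4.34%) and 3.58% at 1000 bp and more (2.69 to 4.76%). Where it lay farther away, the shares were 13.5% (10.2 to 17.7%), 5.45% (4.69 to 6.33%), 5.35% (4.78 to 5.99%) and 7.60% (6.40 to 9.0%). The gap is part of the criterion, and for shared regions it was measured beyond the husk region that they overlap. Differences between these neighbourhoods were therefore not tested. Over all lengths, 4.80% of the V2-IST regions in the near neighbourhood (4.32 to 5.32%) and 6.0% in the far one (5.55 to 6.47%) had no husk region.

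The longest V2-IST-only region of the genome, 2572 bp, lay on chromosome 5 from 144131935 to 144134506, 109008 bp from the nearest husk region. The longest one of chromosome 4 measured 2380 bp (152221974 to 152224353), with husk regions 221412 and 218406 bp away on its sides. On chromosome 3 it measured 2286 bp (51306673 to 51308958, gap 185403 bp) and on chromosome 9 2131 bp (99138723 to 99140853, gap 233452 bp). The third longest V2-IST-only region of the genome was also on chromosome 4, measured 2314 bp (15536436 to 15538749) and lay 48455 bp from husk; it was added after its values were seen.

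The longest ones of the remaining chromosomes included those of chromosome 1 (2276 bp, 1834451 to 1836726, gap 5223 bp), chromosome 10 (2002 bp, 121886423 to 121888424, gap 19563 bp) and chromosome 6 (2001 bp, 159059318 to 159061318, gap 36080 bp). Those of chromosome 8 (1957 bp, 172835573 to 172837529), chromosome 7 (1851 bp, 161107873 to 161109723) and chromosome 2 (1678 bp, 19510136 to 19511813) lay 23232, 39489 and 34301 bp from husk. In all, 9 V2-IST-only regions reached 2000 bp (0.951%, 0.501 to 1.80%), with gaps from 5223 to 233452 bp and a median gap of 48455 bp. Among shared V2-IST regions 1.5% reached this length (1.33 to 1.70%).

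By chromosome, the share of V2-IST regions without a husk region was lowest on chromosome 5, with 82 of 1994 (4.11%, 3.33 to 5.08%), and on chromosome 10, with 48 of 1115 (4.30%, 3.26 to 5.66%). Chromosome 6 had the highest share, with 94 of 1396 (6.73%, 5.53 to 8.17%). On the other 7 chromosomes it lay between 4.86% (chromosome 3) and 6.16% (chromosome 8). The whole-list share of 5.51% lay outside the interval on chromosomes 5 and 6 and inside it on the other 8. Median length ranged from 540 bp on chromosome 9 to 596 bp on chromosome 1, with overlapping intervals. Median gap to husk ranged from 11368.5 bp on chromosome 5 (6803 to 23188 bp) to 33606 bp on chromosome 3 (18989 to 42507 bp), also with overlapping intervals.

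**Figure D4:**
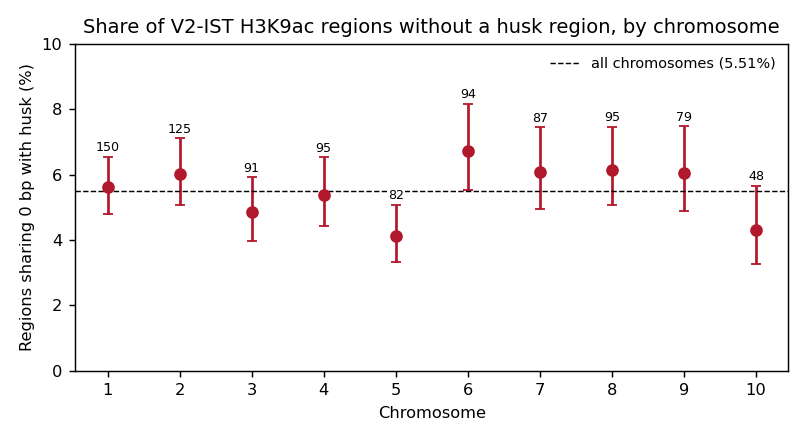
Share of V2-IST regions that share 0 bp with husk (y axis, %) on each of the 10 chromosomes (x axis); points are shares, bars 95% Wilson intervals, labels the number of V2-IST-only regions, and the dashed line the share in the whole list. Values run from 4.11% on chromosome 5 to 6.73% on chromosome 6.

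Along the chromosomes, V2-IST-only regions followed the distribution of H3K9ac in general, with more regions towards the ends. The first and last 10% of the chromosomes held 282 of them (29.8%, 27.0 to 32.8%), 31.9% of the shared V2-IST regions (31.2 to 32.6%) and 30.7% of the husk regions without a V2-IST region (29.9 to 31.5%). The middle of the chromosomes, from 30% to 70% of their length, held 27.7% of them (24.9 to 30.6%) and 27.3% of the shared V2-IST regions (26.6 to 28.0%). When each chromosome was divided into 10 equal parts, the share of V2-IST regions without husk lay between 4.41% in the fourth (3.29 to 5.89%) and 6.70% in the seventh (5.57 to 8.05%), and the interval of the seventh alone did not include 5.51%. V2-IST-only regions within 10 kb of husk lay more often in the outer 10% (39.2%, 34.1 to 44.6%) than those farther than 50 kb from husk (16.1%, 12.1 to 21.2%). Shared V2-IST regions were not split in this way, and all sets were denser towards the ends. Whether this contrast is particular to V2-IST-only regions was therefore not tested.

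**Figure D5:**
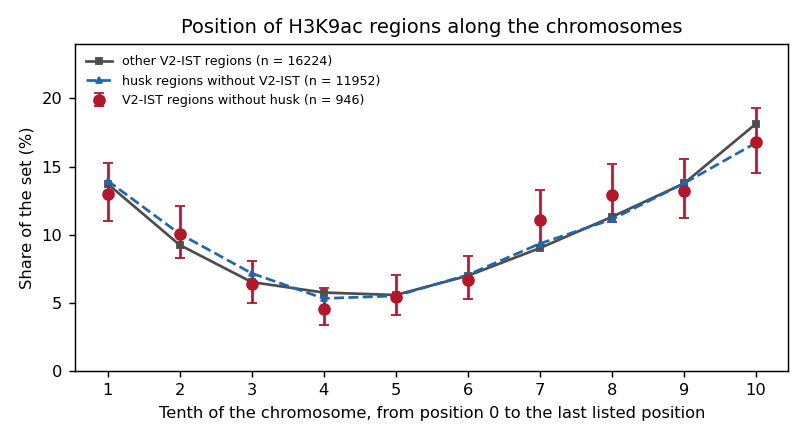
Share of each set of regions (y axis, %) in each of 10 equal parts of a chromosome (x axis, from its start to its last listed position), summed over 10 chromosomes, for V2-IST-only regions (points with 95% Wilson intervals), shared V2-IST regions and husk regions without a V2-IST region (lines). All 3 sets are densest near the ends, and the last of the 10 parts held 16.8% of V2-IST-only and 18.1% of shared V2-IST regions.

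Distances within the V2-IST list are given as a description, since they are not independent of the criterion. Neighbouring shared V2-IST regions can lie in the same husk region, which a V2-IST-only region by definition cannot. V2-IST-only regions stood somewhat farther from other V2-IST regions, and how much of this the criterion sets was not tested. The nearest other V2-IST region, with or without husk, lay at a median of 38993.5 bp (35870 to 44740 bp), against 31568 bp (30380 to 32778 bp) for shared V2-IST regions. It lay within 10 kb in 22.9% of cases (20.4 to 25.7%), against 27.3% (26.6 to 28.0%). No other V2-IST region lay within 50 kb of 405 of them (42.8%, 39.7 to 46.0%), against 38.2% of shared V2-IST regions (37.5 to 39.0%).

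V2-IST-only regions made up 5.51% of the V2-IST list, so few neighbours of any V2-IST region belonged to them. Such neighbours were somewhat more frequent for V2-IST-only than for shared regions, with overlapping intervals. Another V2-IST-only region lay within 10 kb of 20 of them (2.11%, 1.37 to 3.24%), within 5 kb of 10 and within 50 kb of 65 (6.87%, 5.43 to 8.66%), and the median distance to the nearest one was 654848 bp. Of shared V2-IST regions, 1.44% had a V2-IST-only region within 10 kb (1.27 to 1.64%) and 5.26% within 50 kb (4.93 to 5.62%). When the regions were read in order along a chromosome, the region after a V2-IST-only one was again V2-IST-only in 67 cases (7.08%, 5.62 to 8.90%), and after a shared one in 879 cases (5.42%, 5.08 to 5.78%). There were 818 regions standing singly in this order, 56 pairs, 4 runs of 3 regions and 1 run of 4. Of the 2109 windows of 1 Mb, 1372 held no V2-IST-only region, 564 held 1, 143 held 2, 26 held 3, and 2 each held 4 and 5.

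The run of 4 lay on chromosome 1 from 25116358 to 25157147 and spanned 40790 bp without any husk region. It was made of 2 close pairs. The first pair, of 1014 and 655 bp, was separated by 1651 bp, the smallest distance between any V2-IST-only regions. The second pair, of 692 and 1133 bp, began 32760 bp farther on and was separated by 2885 bp. The 4 regions lay 7916, 10581, 43996 and 47573 bp from the nearest husk region. The fifth V2-IST-only region in the same 1 Mb window, from 25739793 to 25741223, lay 973 bp from husk. This window held 17 V2-IST and 18 husk regions in all.

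The window of chromosome 1 from 190000001 to 191000000 also held 5 V2-IST-only regions among 17 V2-IST and 13 husk regions. Of these, 3 followed each other from 190218515 to 190258598 without a husk region between them, and measured 310, 1918 and 475 bp. The third place was shared by windows on chromosomes 1 and 6 with 4 V2-IST-only regions each. In the window of chromosome 1 from 34000001 to 35000000, 3 of the 4 formed a run from 34343927 to 34501916 without a husk region inside, with lengths of 448, 566 and 679 bp and distances of 85608 and 70689 bp between them. The other runs of 3 regions, on chromosomes 2 and 7, each had 1 husk region inside their span.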

How the data were processed

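H3K9ac ChIP-seq of B73 maize was analysed from the deposited lists of enriched regions, 1 per tissue, with V2-IST (2 replicates) and husk (3 replicates) set against input. The deposited values are the start and end of each region, in bp. Following the methods of the study, the authors mapped reads to B73 RefGen_v4 (BWA), filtered them in SAMtools for a mapping quality of 20, and ran MACS2 on each replicate (q-value 0.001); peaks found in all replicates with at least 70% overlap were merged into 1 region, and software versions are not given in the sources used here. Longer or more easily called husk regions lower the number of V2-IST-only regions, and stricter husk calling raises it. Read depth per library is not in the lists, and the values that the study reports were not used. No column was left without a sample (0 columns).

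Regions were compared with functions in Python 3.11.15 (numpy 2.4.6, scipy 1.17.1, pandas 2.3.3; figures with matplotlib 3.10.9), with starts read as counted from 0 and an overlap of at least 1 bp. The functions were tested on simulated data and gave the same 946 regions and the same gap for each of them as bedtools 2.31.1. Position was the midpoint divided by the last listed position of the chromosome. Named regions are the longest of each chromosome, the 5 with the largest and the smallest gap, the 5 shared regions with the smallest overlap, the 3 windows of 1 Mb with the most V2-IST-only regions and the 3 longest runs, with ties in order of chromosome. The regions, measures and rules were chosen with earlier results of these data known. Gene content and sequence were not analysed here.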

Additional observations from a re-analysis of the deposited data

How the results depend on the processing

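The number of V2-IST-only regions was 943 and 930 when a gap of up to 500 or 1000 bp counted as overlap, 983 when under 50% coverage by husk counted as none, 946 when regions of a tissue closer than 200 bp were joined, and 1142 with only husk regions of at least 500 bp. It moved by over 1.5 times to 2266 when every region was set to 600 bp around its midpoint, which shortens most husk regions. All 946 regions were among these 2266 and among the 1142. The count also moved by over 1.5 times, to 581, with only V2-IST regions of at least 500 bp. This was 581 of 11694 regions, against 946 of 17170, so the count fell together with the list. That last setting, which selects on length, also turned the difference of median length to shared regions from -27.5 to 47 bp, and moved the median gap from 22113.5 to 26521 bp and the difference in length between regions near to and far from husk from -111.5 to -13.5 bp. This difference, whose alternatives were added after seeing the data, was -72 bp when split at 50 kb and -121 bp at 5 kb. Widening the outer part from 10% to 20% at each end moved its share to 53.1% by construction (54.9% of shared regions), and other distances moved the share with another V2-IST-only region nearby to 1.06% (5 kb) and 6.87% (50 kb). In all, 15 of 24 alternatives stayed within the interval or within 1.5 times of the count. These 15 include the settings that joined regions closer than 200 bp, whose outcome was fixed in advance. V2-IST regions lay at least 534 bp apart, so none were joined. The farther of the husk regions beside a V2-IST-only region was at least 2030 bp away, so joined husk regions could not reach across one. Regions left out by the requirement for all replicates limit every value here, and no replicate could be left out in turn. No paired analysis was possible because each list combines its replicates and no test was made.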

Other observations

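Of the 2109 windows of 1 Mb, 6 held no husk region, and 1 V2-IST-only region lay in these 6 windows.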
